A study of Mus musculus with 30 samples.

Results

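The genes described here are 10 adhesion genes of the vessel wall and of the leukocytes that bind it. They are the selectin genes Sele and Selp, the selectin ligand gene Selplg, the immunoglobulin superfamily genes Icam1, Icam2, Vcam1 and Madcam1, the endothelial junction genes Pecam1 and Esam, and the von Willebrand factor gene Vwf. They were taken by symbol from the 48820 genes of the deposited count table, and each symbol matched 1 entry. RNA sequencing had been done on 30 libraries, of hippocampus or frontal cortex, from 16 male wild-type C57BL/6J mice, aged 8 to 12 weeks when obtained, of which 14 gave both tissues. Every mouse, the controls included, had drunk corticosterone (CORT, the main stress glucocorticoid of rodents) at 200 mg/L in 0.6% ethanol for 7 days. Each was injected on day 8 with diisopropyl fluorophosphate (DFP, an organophosphate that blocks acetylcholinesterase) at 4 mg/kg, and then had 7-day courses of CORT every other week, 5 weeks in total, to model Gulf War Illness. On the last day the mice received saline, with tissue taken at 6 h (3 libraries per tissue), or lipopolysaccharide (LPS, a bacterial wall component) at 0.5 mg/kg under the skin, with tissue taken 6, 12 or 24 h later (4 libraries per tissue and time). Mice without CORT and DFP were not analysed here, and the saline mice were taken at 6 h, so at 12 h and 24 h LPS cannot be told apart from the hour of collection.

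Leukocytes leave the blood in steps. Selectins on activated endothelium catch glycosylated ligands on passing leukocytes and make them roll, chemokines then activate leukocyte integrins, and the integrins bind immunoglobulin superfamily receptors such as ICAM-1 and VCAM-1 and hold the cell fast. Junction molecules such as PECAM-1 and ESAM take part in the passage between endothelial cells. Resting brain endothelium carries little of the inducible receptors, and inflammatory cytokines and LPS acting through NF-kB are known to switch on their genes. P-selectin and von Willebrand factor are stored together in the Weibel-Palade granules of endothelial cells and in platelets, and PSGL-1, the product of Selplg, is carried by leukocytes and also transcribed in microglia.

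The reference promoters, from the RefSeq table on GRCm38.p6, covered 4 of the 10 members, and their 250 bases before the annotated start are shown because NF-kB sites are known from the selectin and ICAM promoters. Capitals mark letters that match the kB-like pattern GGANNTTCC or its looser form GGNNNTTCC on either strand. The first lies at chr1:164047984-164048233 (plus strand), the second at chr1:164115014-164115263 (plus strand), the third at chr9:21015690-21015939 (plus strand) and the fourth at chr10:79664309-79664558 (plus strand).
Sele: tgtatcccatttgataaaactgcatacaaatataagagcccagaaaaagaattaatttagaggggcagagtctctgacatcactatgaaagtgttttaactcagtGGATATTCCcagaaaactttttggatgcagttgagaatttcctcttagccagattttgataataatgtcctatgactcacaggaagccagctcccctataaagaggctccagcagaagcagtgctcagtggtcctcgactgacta
Selp: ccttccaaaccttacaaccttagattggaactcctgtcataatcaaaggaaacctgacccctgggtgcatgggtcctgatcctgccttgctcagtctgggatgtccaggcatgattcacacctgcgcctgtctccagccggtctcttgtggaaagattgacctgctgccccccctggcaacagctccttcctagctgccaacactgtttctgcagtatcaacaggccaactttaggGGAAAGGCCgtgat
Icam1: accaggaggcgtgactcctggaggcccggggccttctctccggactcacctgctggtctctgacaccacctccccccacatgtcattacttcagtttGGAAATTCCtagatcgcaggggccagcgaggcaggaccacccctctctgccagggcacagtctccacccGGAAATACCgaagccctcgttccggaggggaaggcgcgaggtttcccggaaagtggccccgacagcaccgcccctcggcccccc
Madcam1: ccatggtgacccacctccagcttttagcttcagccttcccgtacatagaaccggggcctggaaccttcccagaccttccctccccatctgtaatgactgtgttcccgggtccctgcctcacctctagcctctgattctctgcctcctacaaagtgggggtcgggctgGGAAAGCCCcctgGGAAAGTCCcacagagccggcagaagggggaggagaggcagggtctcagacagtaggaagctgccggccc
The stricter pattern stood at bases -145 to -137 of Sele, -153 to -145 of Icam1 and -70 to -62 of Madcam1, counted back from the RefSeq start of transcription. For Icam1 that start is not the GENCODE one given below: its window ends at 21015939 and the GENCODE gene starts at 21015985. The other windows end right before the GENCODE start. Selp held none of it and 1 match of the looser form, at -14 to -6. Of 32851 promoters of that length in the table, 3.59% held the stricter and 15.7% the looser pattern, and every stricter match is also a looser one. An AP-1-like TGANTCA lay at -73 to -67 of Sele and -139 to -133 of Selp (6.75% of promoters), an IRF-like GAAANNGAA at -208 to -200 of Sele (7.13%) and a TATAAA box at -49 to -44 of Sele (12.4%). The GATA-like AGATAA, in 9.99% of promoters, was in none of the 4. Madcam1, which carried a kB-like match too, stayed near the limit of detection in all groups. The part of any of these matches in the members' levels was not tested.

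Libraries held 16826882 to 33034295 counts. Sums of 4 hippocampal marker genes (551 to 662 CPM in the hippocampus, 139 to 218 CPM in the cortex) and of 4 cortical ones (270 to 411 CPM in the cortex, 114 to 153 CPM in the hippocampus) matched the tissue labels in every library. Expression is given in CPM, read counts relative to library size (the usual CPM unit), scaled by TMM factors over all 30 libraries, as mean ± SD with n = 3 in saline and n = 4 in each LPS group. Log2 fold changes carry adjusted p values from edgeR's quasi-likelihood test. Their standard errors (SE) are approximate, worked back as the size of the log2 fold change over the square root of that test's F statistic. The labels make each library of a group a separate mouse. Markers of microglia, neutrophils and venous endothelium moved with the groups and those of choroid plexus stood out in single libraries, and their summed levels are given beside the members they touch. The 7 meningeal fibroblast markers summed to 113 to 125 CPM in cortical saline libraries, 81.6 to 123 CPM at 6 h, 65.8 to 88.9 CPM at 12 h and 78.8 to 93.5 CPM at 24 h, and to 91.1 to 123 CPM after saline and 104 to 174 CPM at 12 h in the hippocampus. Their part in the results was not tested.

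Some cortical libraries went against their time labels. A score was taken over genes that differed between 24 h and 12 h in the hippocampus, with the members left out (mean log2 CPM of 150 later genes minus that of 217 earlier ones). In the hippocampus the 12 h libraries scored -0.84 to -0.64 and the 24 h libraries 0.38 to 0.46. Over both tissues the LPS 6 h libraries scored -0.86 to -0.65 and the saline libraries -0.14 to 0.047. The score thus does not tell 12 h from 6 h. In the cortex the 12 h libraries of mice A258 and A259 scored -0.61 and -0.66, but those of A260 and A261 scored 0.34 and 0.22. The cortical 24 h libraries of A274 and A275 scored 0.34 and 0.25, but those of A276 and A278 scored -0.60 and -0.77. The hippocampal libraries, those of these 4 mice included, had chosen the genes, so their own separation by the score was fixed by that choice. Groups were kept as labelled. Most fitted changes of members in the cortex at 12 h and 24 h are given with and without the libraries of A260, A261, A276 and A278, a choice made after their values were seen. Pooled ratios to saline, gene lists, correlations and tissue differences of the response are given with all libraries only. Without those 4 libraries A258 and A259 remain at 12 h and A274 and A275 at 24 h. The 4 were picked by a score for 24 h against 12 h, so values without them are descriptions and not separate tests.

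**Figure D1:**
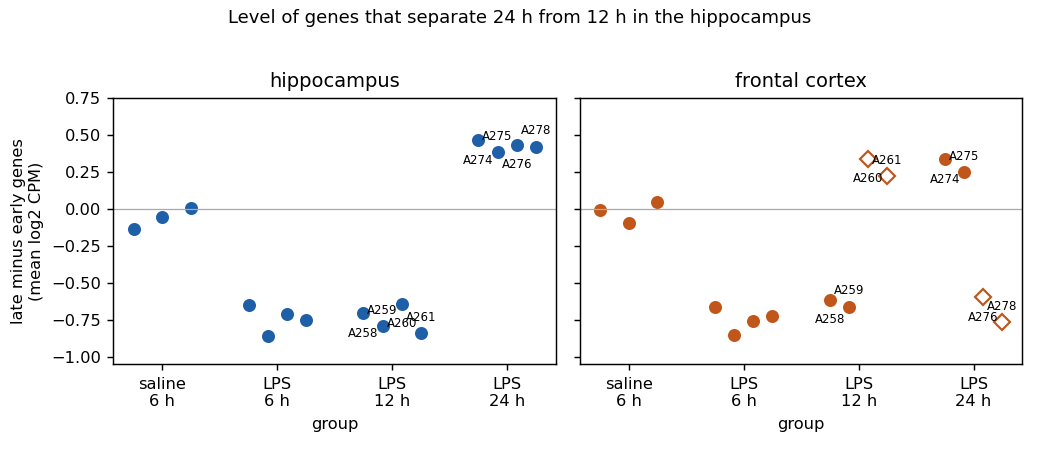
Score of late genes in each library (y axis, mean log2 CPM of 150 genes higher at 24 h than at 12 h in the hippocampus minus that of 217 lower genes), by group (x axis), with mouse codes at 12 h and 24 h. Open diamonds mark the cortical libraries of A260 and A261 (0.34 and 0.22 in the 12 h group) and of A276 and A278 (-0.60 and -0.77 in the 24 h group). The former lie with the 24 h libraries, and the latter lie low, where both the 12 h and the LPS 6 h libraries lie.

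Of the 10 members 9 had enough reads to be tested, and Madcam1 did not. Sele and Selp, with 1 or 2 saline reads a tissue, passed the filter through their LPS libraries alone. Their calls as higher than saline were largely fixed by how they entered, and both are counted among the members that rose at every time. In the hippocampus 5 of the 9 rose and 1 fell at 6 h after LPS (2.96% and 2.15% of the 17289 genes tested were called higher and lower), 7 rose and 1 fell at 12 h (6.07% and 6.28%) and 8 rose and none fell at 24 h (6.76% and 6.6%; the same 0 by DESeq2, by limma-voom and at an unadjusted p under 0.05). Their median log2 fold change was 0.48, 0.67 and 0.99, against -0.0036, 0.0057 and -0.0025 over all genes tested. In the cortex 4 rose at 6 h (2.3% of 17111 genes higher, 1.2% lower), 7 at 12 h (4.13% and 2.99%) and 7 at 24 h (3.73% and 2.38%), with medians of 0.42, 0.90 and 0.85 against 0.013, 0.0088 and -0.00072 over all genes. No member was called lower there. At 6 h 1 (Selplg) passed by DESeq2, by limma-voom and at an unadjusted p under 0.05, and at 12 h and 24 h none did by any of these. Without the 4 libraries 6 rose and 1 fell at 12 h (2.69% and 1.59% of 17166 genes) and all 9 rose at 24 h (3.29%; 2.23% of genes fell). The 3 comparisons of a tissue share the same saline libraries, so they are not independent of each other. The members were chosen with earlier results of these data known, so their counts and medians beside all genes are descriptions.

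Between LPS times, 1 member was higher and 1 lower at 12 h than at 6 h in the hippocampus (1.14% and 1% of all genes), 3 were higher and none lower at 24 h than at 12 h (0.885% and 1.26%; 2 lower at an unadjusted p under 0.05, none by DESeq2 or limma-voom), and 2 were higher and 3 lower at 24 h than at 6 h (4.57% and 4.92%). In the cortex 2 were higher and 1 lower at 12 h than at 6 h (0.614% of genes in each direction), and 2 and 2 at 24 h than at 6 h (0.789% and 1.04%). Between 12 h and 24 h in the cortex edgeR called no member and no other gene (0% of 17111), with no member and 310 genes at an unadjusted p under 0.05, and DESeq2 and limma-voom called no member. Without the 4 libraries 2 members, Selplg and Vwf, were higher at 24 h than at 12 h and none lower, against 0.0932% and 0.0699% of all genes. Those libraries were set aside by a score built on the hippocampal difference of 24 h from 12 h, in which both genes were also higher. These counts are therefore a description and not a separate test.

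Sele encodes E-selectin, which cytokine-activated endothelium makes anew to catch leukocytes (ENSMUSG00000026582.6, GRCm38 chromosome 1, 164048234 to 164057677, plus strand, GENCODE M21). It was all but silent after saline and appeared in every LPS library. In both tissues Sele and Selp passed the filter through LPS libraries alone, so their adjusted p values against saline are no separate support. Hippocampal saline libraries held 1, 1 and 0 reads, the last of which allows up to 0.112 CPM, and the LPS 6 h libraries 91, 121, 116 and 127. These are 0.0349, 0.0344 and 0 CPM against 3.47, 5.09, 5.94 and 6.82 CPM. At 12 h the level was 2.56, 2.82, 3.67 and 4.65 CPM, and at 24 h 1.26, 1.61, 1.87 and 3.06 CPM. The highest 12 h library was A261, which had the most choroid plexus RNA, and the part of that RNA was not tested. No LPS library came near a saline one at any time, and the 24 h libraries lay below all 6 h libraries. As ratios of pooled counts to saline with 95% exact intervals, which cover counting error alone, this was 220 (60.5 to 1820) at 6 h, 148 (40.7 to 1230) at 12 h and 84.2 (23.0 to 701) at 24 h (adjusted p = 9.35e-08, 2.38e-07 and 3.19e-06). From 6 h to 24 h Sele fell by 1.44 on the log2 scale (SE 0.26, adjusted p = 0.00131). Neither step of that fall passed alone (adjusted p = 0.219 and 0.127), though the second did without the 24 h library of A275 (-1.11, adjusted p = 0.0256). In whole tissue, fewer cells of a type and less RNA per cell cannot be told apart, here and for every gene that follows.

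In the cortex Sele had 1, 1 and 0 saline reads (0.0503, 0.0609 and 0 CPM). After LPS it reached 4.33, 6.45, 8.16 and 9.33 CPM at 6 h. It then stood at 4.66, 3.68, 1.71 and 2.33 CPM at 12 h and at 1.295, 3.17, 3.25 and 3.54 CPM at 24 h, in the order of the mouse codes A258 to A261 and A274 to A278. Within the 12 h group A260 and A261 were the lower libraries, and at 24 h A276 and A278 were the upper ones. Ratios to saline were 249 (68.5 to 2058), 114 (31.2 to 944) and 103 (28.2 to 854), with adjusted p = 1.26e-05, 6.95e-05 and 0.000108. With so few saline reads they depended on single saline libraries, at 132, 60.5 and 54.7 without A226 and 379, 173 and 157 without A224. Without the 4 libraries the fitted log2 changes from saline were 6.88 at 12 h and 5.99 at 24 h, against 6.47 and 6.34 with them. The fitted change from 12 h to 24 h was -0.13 with them and -0.89 without (adjusted p = 0.874 without). From 6 h to 24 h Sele fell by 1.33 on the log2 scale (SE 0.31, adjusted p = 0.0441), and the change was -1.67 without the 4 libraries (adjusted p = 0.0214). Leaving out A241, A242, A243, A274, A275 or A276 alone lifted its adjusted p to between 0.0771 and 0.0970.

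Selp encodes P-selectin, which endothelium and platelets keep in granules and can bring to the surface within minutes (ENSMUSG00000026580.16, chromosome 1, 164115264 to 164150026, plus strand). Its gene starts 57587 bases past the end of Sele on the same strand. The hippocampal saline libraries held 2, 0 and 0 reads, and the LPS 6 h libraries 101, 110, 95 and 93 reads (3.85, 4.62, 4.87 and 4.99 CPM). The level was 1.74, 1.98, 2.58 and 3.87 CPM at 12 h, again highest in A261, and 1.17, 1.66, 1.70 and 1.74 CPM at 24 h. The 6 h and 24 h libraries did not overlap. Ratios to saline were 193 (53.0 to 1597), 110.5 (30.2 to 918) and 67.9 (18.5 to 567), with adjusted p = 7.4e-10, 1.06e-08 and 1.52e-07. Both saline reads came from A222, and without that library Selp was at least 84.7-fold, 48.5-fold and 29.8-fold higher than 3 reads over the saline group. Without A224 the ratios were 126, 72.1 and 44.3. Selp fell by 1.54 from 6 h to 24 h on the log2 scale (SE 0.22, adjusted p = 8.07e-05). The first part of the fall, -0.84 from 6 h to 12 h, passed with adjusted p = 0.0324 and did not pass without any 1 of the 7 libraries A240 to A243 and A258 to A260, nor with the mouse as a replicate block (adjusted p = 0.104). Nor did it pass with both tissues in 1 fit without a block (adjusted p = 0.133).

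In the cortex 1 Selp read was seen over the 3 saline libraries, against 63, 139, 139 and 129 reads at 6 h (3.33, 7.45, 6.32 and 6.05 CPM). At 12 h Selp stood at 3.59, 3.34, 1.17 and 2.45 CPM and at 24 h at 1.82, 2.15, 2.03 and 2.95 CPM (A258 to A261 and A274 to A278). Ratios to saline were 409 (73.0 to 16175), 194 (34.6 to 7712) and 163 (28.9 to 6477), with adjusted p = 1.7e-06, 1.06e-05 and 2.34e-05. The read came from A226, without which the group stood at 0 and Selp was at least 72.4-fold, 34.5-fold and 28.9-fold higher. Without the 4 libraries the fitted log2 changes from saline were 7.40 at 12 h and 6.60 at 24 h, against 7.03 and 6.80 with them. From 6 h to 12 h Selp fell by 1.14 on the log2 scale (adjusted p = 0.0484), and the change was -0.76 without the 4 libraries (adjusted p = 0.297). From 6 h to 24 h Selp fell by 1.37 (SE 0.28, adjusted p = 0.0174), and without them the change was -1.55 (adjusted p = 0.00576). It also missed the threshold without A242, A274, A275 or A276 (adjusted p = 0.0509 to 0.0658). Platelets hold Selp messenger RNA, and the summed level of 7 platelet markers was 8.26 to 9.07 CPM in hippocampal saline libraries and 7.41 to 9.14 CPM at LPS 6 h (12.6 to 13.5 and 10.9 to 16.1 CPM in the cortex).

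The levels of the selectins went closely together. Across the 15 libraries of a tissue their log2 CPM correlated with r = 0.990 in the hippocampus and 0.986 in the cortex. These are descriptions over libraries that share the contrast between saline and LPS and differ in depth. At LPS 6 h the level per kilobase of the longest coding transcript was 1.83 ± 0.491 CPM for Sele and 1.33 ± 0.15 for Selp in the hippocampus, and 2.43 ± 0.746 and 1.68 ± 0.508 in the cortex, and the ranges overlapped in both.

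**Figure D2:**
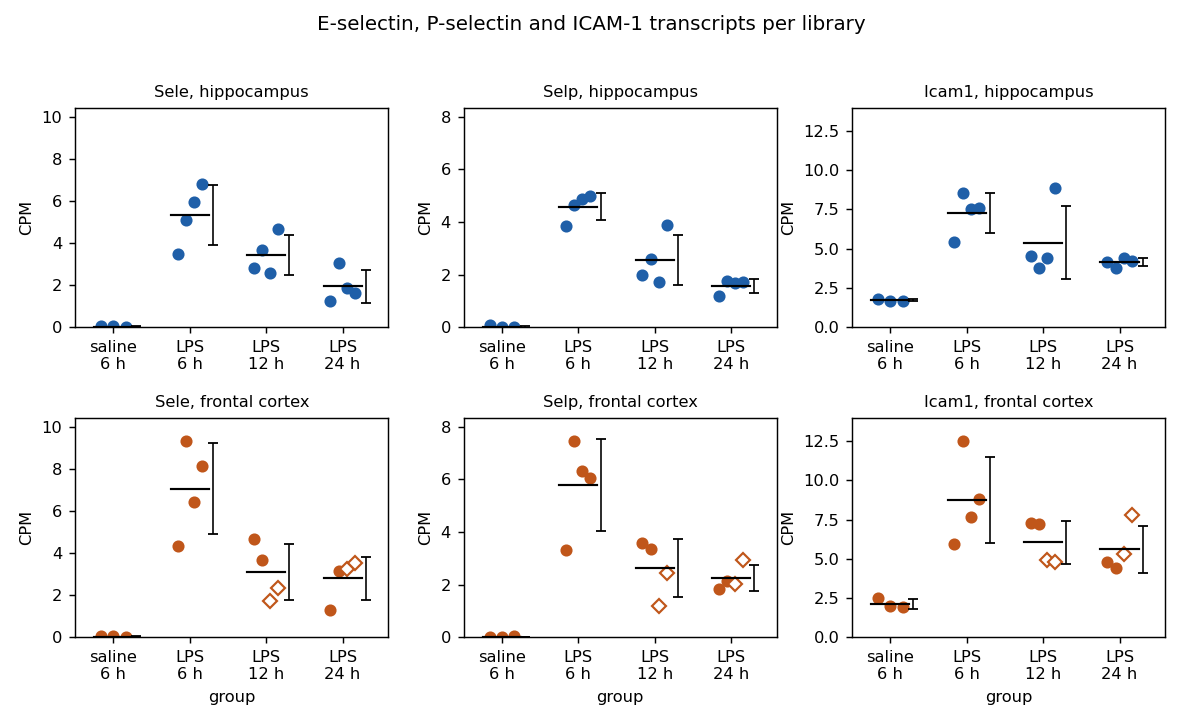
CPM of Sele, Selp and Icam1 in each library (y axis, linear) by group (x axis) in hippocampus (top) and frontal cortex (bottom), with points for libraries, horizontal bars for means and error bars for the SD. Open diamonds are the cortical libraries of A260, A261, A276 and A278. Sele and Selp are at or under 0.0697 CPM in all 6 saline libraries and between 1.17 and 9.33 CPM in all 24 LPS libraries, with the highest mean at 6 h in both tissues.

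Icam1 encodes ICAM-1, the receptor of the leukocyte integrins LFA-1 and Mac-1, present at a low level on resting endothelium and also made by activated glia and leukocytes (ENSMUSG00000037405.7, chromosome 9, 21015985 to 21028817, plus strand; an antisense gene overlaps it). It rose at every time in both tissues. Hippocampal levels went from 1.81, 1.69 and 1.67 CPM after saline to 5.45, 8.53, 7.53 and 7.57 CPM at 6 h (log2 fold change 2.07 ± 0.25 SE, adjusted p = 3.66e-05). At 12 h it was 4.54, 3.77, 4.42 and 8.84 CPM (1.66 ± 0.25, adjusted p = 0.000202), and at 24 h 4.18, 3.76, 4.40 and 4.23 CPM (1.27 ± 0.26, adjusted p = 0.0028). Every LPS library was above every saline library, and 1 of the 12 h libraries stood high, that of A261. This library had the highest choroid plexus marker sum of all 30 (2413 CPM, against 13.4 to 1317 CPM in the others), and Icam1 was lower at 12 h than at 6 h without it (-0.77, adjusted p = 0.00571) but not with it (-0.41, adjusted p = 0.355). The part of choroid plexus RNA in the level was not tested. From 6 h to 24 h Icam1 fell by 0.81 (SE 0.21, adjusted p = 0.0204), a call lost without A241, A242 or A275 (adjusted p = 0.0510 to 0.0652).

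In the cortex Icam1 rose from 2.52, 2.01 and 1.92 CPM to 5.97, 12.5, 7.68 and 8.81 CPM at 6 h (2.06 ± 0.26, adjusted p = 0.000162). It was 7.26, 7.21, 4.94 and 4.77 CPM at 12 h (1.52 ± 0.27, adjusted p = 0.00136) and 4.80, 4.44, 5.33 and 7.81 CPM at 24 h (1.42 ± 0.27, adjusted p = 0.0028), A258 to A261 and A274 to A278 in order. Again no LPS library reached down to the saline range. Without the 4 libraries the 12 h and 24 h changes were 1.76 ± 0.25 and 1.13 ± 0.27 (adjusted p = 0.000818 and 0.0233). The change from 6 h to 24 h was -0.64 (adjusted p = 0.141) with them and -0.92 (adjusted p = 0.0447) without them, and -0.85 (adjusted p = 0.0451) without A278 alone.

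Vcam1 encodes VCAM-1, the endothelial receptor of the integrin VLA-4, which holds lymphocytes and monocytes (ENSMUSG00000027962.14, chromosome 3, 116109949 to 116129688, minus strand; an antisense gene overlaps it). It rose at every time in both tissues. In the hippocampus it was 14.7, 12.9 and 12.5 CPM after saline and 20.8, 20.6, 24.95 and 25.9 CPM at 6 h (0.78 ± 0.14, adjusted p = 0.00193). At 12 h it was 23.8, 23.5, 19.0 and 29.98 CPM (0.85 ± 0.14, adjusted p = 0.000436). The highest was A261, the library with the most choroid plexus RNA, whose part in the level was not tested. At 24 h it ranged from 20.6 to 26.8 CPM (0.86 ± 0.14, adjusted p = 0.000351). All LPS libraries lay above the saline range. The change from 6 h to 24 h was 0.08 ± 0.12 (adjusted p = 0.735). In the cortex it went from 15.7, 17.1 and 12.8 CPM to 22.3, 30.6, 29.0 and 32.1 CPM at 6 h (0.95 ± 0.14, adjusted p = 0.000407). It was at 18.6 to 25.7 CPM at 12 h (0.62 ± 0.14, adjusted p = 0.00804) and 19.9 to 25.8 CPM at 24 h (0.68 ± 0.14, adjusted p = 0.00447), and without the 4 libraries these changes were 0.65 and 0.72. The 12 h rise did not pass without the saline library of A226 (0.50, adjusted p = 0.0712).

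Icam2 encodes ICAM-2, an LFA-1 receptor that resting endothelium carries (ENSMUSG00000001029.15, chromosome 11, 106377656 to 106388075, minus strand). Its counts were few, 19 to 89 per library. In the hippocampus it was 1.26, 0.826 and 1.32 CPM after saline, 1.49 to 1.72 CPM at 6 h (0.46 ± 0.21, adjusted p = 0.277) and 0.992 to 1.44 CPM at 12 h (0.14 ± 0.21, adjusted p = 0.761). At 24 h it reached 2.04, 2.02, 2.33 and 2.57 CPM, above every other hippocampal library (0.99 ± 0.20 against saline, adjusted p = 0.00112). It was higher at 24 h than at 12 h by 0.85 ± 0.19 (adjusted p = 0.0137), but not without A278 or with the mouse as a replicate block (adjusted p = 0.0585 and 0.0584). In the cortex it was 1.76, 1.16 and 1.37 CPM after saline and 1.58 to 2.06 CPM at 6 h (0.38 ± 0.22, adjusted p = 0.342). It rose to 2.31, 2.77, 2.89 and 3.63 CPM at 12 h (1.04 ± 0.21, adjusted p = 0.00348; 0.82 and adjusted p = 0.0550 without the 4 libraries). At 24 h it was 3.12, 2.73, 2.08 and 2.27 CPM (0.85 ± 0.21, adjusted p = 0.0182; 1.04 and adjusted p = 0.0112 without them), a call lost without A224, A226, A274 or A275 (adjusted p = 0.0570 to 0.0995).

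Madcam1 encodes MAdCAM-1, the receptor of gut-homing lymphocytes on intestinal venules and also known from choroid plexus epithelium (ENSMUSG00000020310.8, chromosome 10, 79664559 to 79668537, plus strand). It had 0 to 13 reads per library, too few for the test. Pooled over a group it had 12 reads in hippocampal saline libraries and 8, 20 and 20 at the LPS times in turn (ratios 0.644, 1.62 and 1.64 with 95% exact intervals of 0.228 to 1.71, 0.752 to 3.62 and 0.764 to 3.68). Of the 20 reads at 12 h, 13 came from A261, the library with the most choroid plexus RNA, and the ratio there was 0.777 without it. Without A242 the 6 h ratio was 0.414. In the cortex it had 5 reads after saline and 15, 15 and 13 after LPS (ratios 2.61, 2.42 and 2.21, with intervals of 0.901 to 9.17, 0.836 to 8.51 and 0.739 to 7.92). Without saline A224 these ratios were 4.97, 4.61 and 4.21. All 6 intervals over the whole groups included 1, so no change of Madcam1 was detectable at this depth.

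Pecam1 encodes PECAM-1 (CD31), a junction molecule of all endothelium that also lies on platelets and leukocytes (ENSMUSG00000020717.19, chromosome 11, 106654217 to 106750628, minus strand). In the hippocampus it was 18.4, 17.9 and 15.7 CPM after saline and 19.0 to 21.2 CPM at 6 h (0.23 ± 0.14, adjusted p = 0.499). It was 21.5, 27.0, 25.3 and 22.6 CPM at 12 h (0.48 ± 0.14, adjusted p = 0.0302) and 20.5, 20.7, 32.7 and 22.6 CPM at 24 h (0.48 ± 0.14, adjusted p = 0.0277), with all of these above the saline range. These calls were near the threshold: leaving out any of the 3 saline libraries, or A259 or A260 at 12 h, gave adjusted p values of 0.0546 to 0.116. In the cortex Pecam1 was 22.1, 20.6 and 22.8 CPM after saline and 19.3 to 26.1 CPM at 6 h (0.03 ± 0.11, adjusted p = 0.898). It then rose to 29.3, 29.7, 37.7 and 30.2 CPM at 12 h (0.56 ± 0.11, adjusted p = 0.00278) and 30.9, 27.6, 33.4 and 32.4 CPM at 24 h (0.53 ± 0.11, adjusted p = 0.0047). It passed without the 4 libraries as well (0.43 at both times, adjusted p = 0.0403 and 0.0340). The difference of 12 h from 6 h there was 0.53 with the 4 libraries and 0.42 without them (adjusted p = 0.0134 and 0.136).

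Esam encodes the endothelial cell-selective adhesion molecule of tight junctions (ENSMUSG00000001946.13, chromosome 9, 37528078 to 37538319, plus strand). It rose at every time in the hippocampus and at 12 h and 24 h in the cortex. Hippocampal levels were 10.6, 11.1 and 9.20 CPM after saline and 13.6, 14.6, 16.3 and 12.8 CPM at 6 h (0.48 ± 0.11, adjusted p = 0.0083). It was 15.3 to 18.1 CPM at 12 h (0.67 ± 0.11, adjusted p = 0.000138) and 13.4 to 19.3 CPM at 24 h (0.64 ± 0.11, adjusted p = 0.00021), and no LPS library overlapped with saline. In the cortex it was 13.9, 13.2 and 13.95 CPM after saline and 15.7, 17.1, 20.3 and 18.0 CPM at 6 h (0.42 ± 0.12, adjusted p = 0.0708). That 6 h change passed without the 4 libraries (0.40, adjusted p = 0.0195). With both tissues in 1 fit it passed with the mouse as a replicate block (adjusted p = 0.0450) and without (adjusted p = 0.0360). Esam rose to 22.4, 21.6, 30.7 and 25.4 CPM at 12 h (0.90 ± 0.12, adjusted p = 8.71e-05) and 22.1 to 26.3 CPM at 24 h (0.85 ± 0.12, adjusted p = 0.000173), or by 0.68 and 0.74 without the 4 libraries.

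**Figure D3:**
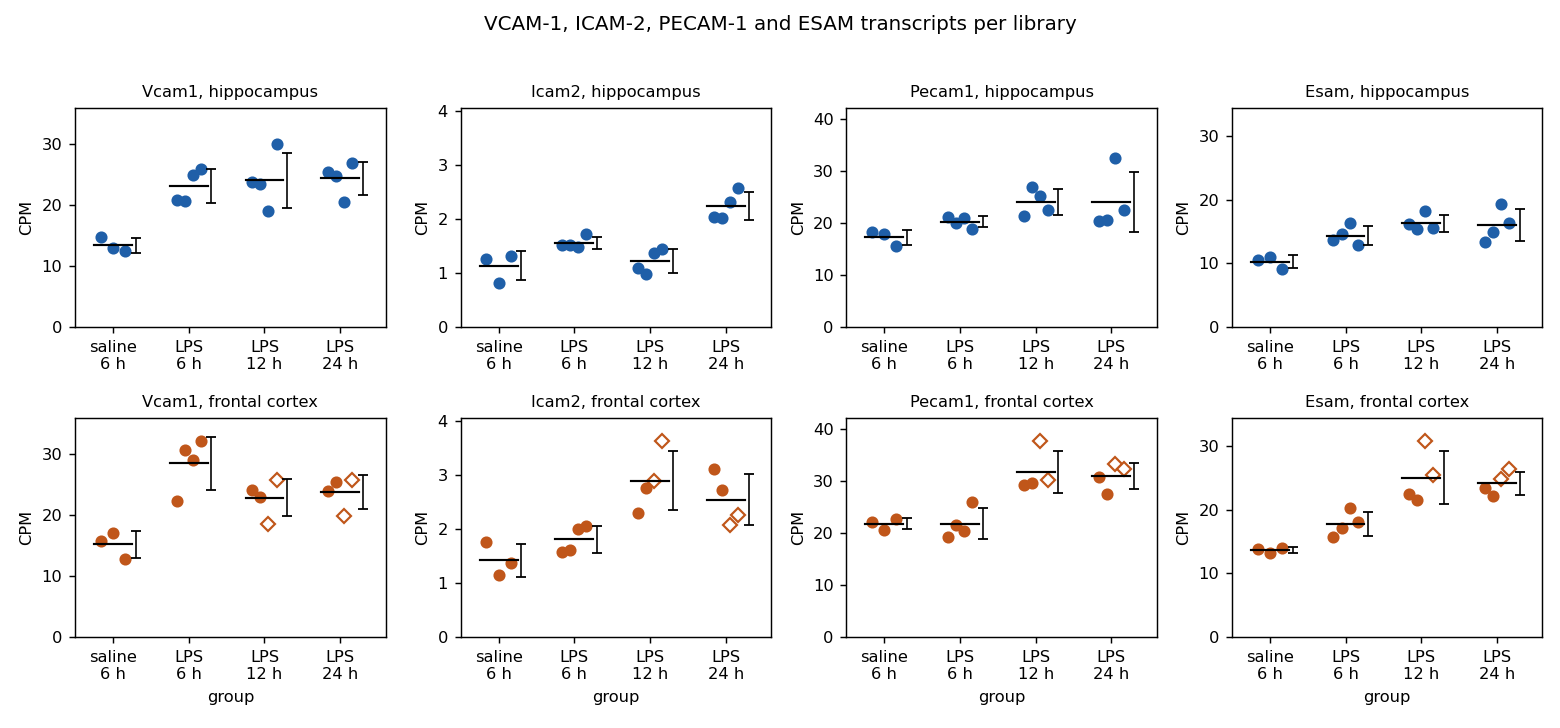
CPM of Vcam1, Icam2, Pecam1 and Esam in each library (y axis, linear) by group (x axis) in hippocampus (top) and frontal cortex (bottom), with points for libraries, horizontal bars for means, error bars for the SD and open diamonds for the cortical libraries of A260, A261, A276 and A278. Vcam1 is above the saline range in every LPS library, at 18.6 to 32.1 CPM against 12.5 to 17.1 CPM, while Icam2 in the hippocampus leaves the range of the other groups at 24 h, at 2.02 to 2.57 CPM.

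These members are carried by endothelium, and the summed level of 12 pan-endothelial markers was 216 to 229 CPM after saline, 204 to 218 CPM at 6 h, 189 to 225 CPM at 12 h and 237 to 250 CPM at 24 h in the hippocampus. In the cortex it was 260 to 292, 229 to 260, 255 to 314 and 272 to 340 CPM. As a share of that sum Vcam1 was 6.03 ± 0.357% after saline, 10.9 ± 1.29% at 6 h and 9.93 ± 1.13% at 24 h in the hippocampus. Pecam1 was 7.80 ± 0.464%, 9.58 ± 0.360% and 9.79 ± 2.26%, and Esam 4.63 ± 0.379%, 6.77 ± 0.692% and 6.51 ± 0.989%. At 12 h the shares were 11.7 ± 2.70%, 11.6 ± 0.306% and 7.90 ± 0.811%, the highest of the 4 groups for each. The 6 venous endothelial markers summed to 67.1 to 74.7 CPM after saline, 79.2 to 97.7 CPM at 6 h, 92.1 to 119 CPM at 12 h and 87.4 to 102 CPM at 24 h in the hippocampus. In the cortex they summed to 51.1 to 52.0, 56.8 to 69.0, 70.5 to 81.0 and 70.3 to 78.3 CPM, so that every LPS group lay above saline in both tissues, and their part in the members' levels was not tested. The 6 arterial ones summed to 95.3 to 102 CPM after saline and 106 to 108 CPM at 6 h in the hippocampus (106 to 122 and 107 to 120 CPM in the cortex).

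Vwf encodes von Willebrand factor, the multimer that binds platelets at damaged vessels and builds the Weibel-Palade granules (ENSMUSG00000001930.17, chromosome 6, 125546774 to 125686679, plus strand). No change passed at 6 h, and in the hippocampus it rose at 12 h and further at 24 h. Hippocampal libraries had 19.7, 17.9 and 14.6 CPM after saline and 17.2, 15.6, 17.1 and 17.1 CPM at 6 h (-0.06 ± 0.12, adjusted p = 0.911). It was 21.4, 31.6, 29.5 and 24.6 CPM at 12 h (0.63 ± 0.12, adjusted p = 0.0013) and 48.5, 55.0, 46.3 and 51.6 CPM at 24 h (1.53 ± 0.12, adjusted p = 6.26e-08). The 6 h libraries lay within the saline range, the 12 h libraries all above it, and the 24 h libraries above all others. Vwf was higher at 12 h than at 6 h by 0.68 ± 0.11 (adjusted p = 0.00293), at 24 h than at 12 h by 0.90 ± 0.10 (adjusted p = 0.000104) and at 24 h than at 6 h by 1.59 ± 0.11 (adjusted p = 4.63e-08). In the fit of both tissues with the mouse as a replicate block the 12 h change from saline (0.61) and the changes between successive times (0.66 and 0.92) missed the threshold (adjusted p = 0.116, 0.210 and 0.0564). The same changes missed it in a fit of both tissues without a block (adjusted p = 0.141, 0.217 and 0.0899). As a share of the endothelial marker sum Vwf went from 7.83 ± 0.951% to 7.91 ± 0.214%, 12.9 ± 1.26% and 20.5 ± 2.01%.

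In the cortex Vwf split by the late-gene score within its groups. It was 26.6, 22.4 and 24.3 CPM after saline and 18.9, 23.1, 17.2 and 22.5 CPM at 6 h (-0.23 ± 0.31, adjusted p = 0.718). At 12 h it was 31.4 and 34.0 CPM in A258 and A259 but 56.9 and 54.5 CPM in A260 and A261 (0.88 ± 0.31, adjusted p = 0.123). At 24 h it was 73.7 and 56.1 CPM in A274 and A275 but 33.1 and 31.4 CPM in A276 and A278 (1.01 ± 0.31, adjusted p = 0.0841). The 24 h rise passed without A276 alone or A278 alone (adjusted p = 0.0496 and 0.0483). Without the 4 libraries the change was 0.42 ± 0.13 at 12 h (adjusted p = 0.119) and 1.42 ± 0.13 at 24 h (adjusted p = 1.85e-05), and 24 h exceeded 12 h by 1.0006 ± 0.14 (adjusted p = 0.0125). With the mouse as a replicate block and all libraries, Vwf passed at 12 h (0.81, adjusted p = 0.0145) and at 24 h (0.91, adjusted p = 0.00696). In the fit of both tissues without a block it passed as well (0.88 and 1.01, adjusted p = 0.0196 and 0.0081). The libraries left out were set aside for a score that moves with Vwf in the hippocampus, so the values without them are a description and not a separate test.

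Selplg encodes PSGL-1, the main selectin ligand of leukocytes and a gene that resting microglia also transcribe (ENSMUSG00000048163.13, chromosome 5, 113818536 to 113832644, minus strand). It fell early and returned. The hippocampus had 20.5, 18.8 and 25.1 CPM after saline and 9.60, 8.07, 12.2 and 10.8 CPM at 6 h (-1.08 ± 0.16, adjusted p = 0.000424). It was 15.03, 10.1, 14.3 and 13.7 CPM at 12 h (-0.68 ± 0.15, adjusted p = 0.00689) and 29.9, 29.6, 22.7 and 31.6 CPM at 24 h (0.41 ± 0.15, adjusted p = 0.0817). The 6 h and 12 h libraries lay below every saline library, and 3 of the 4 at 24 h above them. The 24 h value passed with DESeq2 (0.41, adjusted p = 0.0286), and without saline A226 or LPS A276 (0.53 and 0.51, adjusted p = 0.0363 and 0.0218). Selplg was higher at 24 h than at 6 h by 1.49 ± 0.15 and than at 12 h by 1.09 ± 0.14 (adjusted p = 1.23e-05 and 0.000841). With the mouse as a replicate block the 12 h fall and the rise from 12 h to 24 h missed the threshold (-0.70 and 1.09, adjusted p = 0.126 and 0.0670). In a fit of both tissues without a block the 6 h fall missed it too (-1.08, adjusted p = 0.0589). There the 12 h fall and the rise from 12 h to 24 h also missed it (adjusted p = 0.204 and 0.119).

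In the cortex Selplg was 23.4, 19.1 and 21.2 CPM after saline and 9.24, 6.11, 10.4 and 9.33 CPM at 6 h, with no overlap (-1.23 ± 0.41, adjusted p = 0.141). The fall passed with both tissues in 1 fit, with the mouse as a replicate block (-1.26, adjusted p = 0.0120) or without (-1.24, adjusted p = 0.0208). It also passed with DESeq2 (-1.25, adjusted p = 0.0398) and in a fit of the 2 groups alone (-1.24, adjusted p = 0.000929). The same held without the 4 libraries, which belong to other groups but enter the shared spread (-1.25 ± 0.14, adjusted p = 8.2e-05). At 12 h Selplg was 12.5 and 13.2 CPM in A258 and A259 but 22.6 and 32.9 CPM in A260 and A261 (-0.04 ± 0.39, adjusted p = 0.971). At 24 h it was 32.9 and 30.4 CPM in A274 and A275 but 13.7 and 13.6 CPM in A276 and A278 (0.11 ± 0.39, adjusted p = 0.941). Without the 4 libraries it was lower than saline at 12 h (-0.73 ± 0.16, adjusted p = 0.0183) and higher at 24 h (0.58 ± 0.15, adjusted p = 0.0356). As for Vwf, the score that set them aside moves with Selplg in the hippocampus, so these values are a description and not a separate test.

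The summed level of 6 microglia markers overlapped with saline at 6 h and 12 h in the hippocampus, where Selplg lay below saline, and was above saline at 24 h, where Vwf was highest. In that tissue it was 163 to 207 CPM after saline, 140 to 178 CPM at 6 h, 201 to 211 CPM at 12 h and 285 to 313 CPM at 24 h. In the cortex it was 158 to 212 CPM after saline and 128 to 163 CPM at 6 h, where Selplg also lay below saline. The medians of these groups were 205 and 160 CPM, and 171 and 166 CPM in the hippocampus. At 12 h in the cortex the sum was 209 and 205 CPM in A258 and A259 and 271 and 334 CPM in A260 and A261. At 24 h it was 314 and 300.5 CPM in A274 and A275 and 225.8 and 226.3 CPM in A276 and A278. Its part in the levels of Selplg and Vwf was not tested. The platelet markers, whose cells also hold Vwf, summed to 6.73 to 9.78 CPM in the hippocampus at 24 h, against 8.26 to 9.07 CPM after saline. Neutrophils carry PSGL-1, and the 10 neutrophil markers summed to 6.14 to 6.44 CPM after saline and 14.5 to 16.001 CPM at 6 h in the hippocampus (5.79 to 7.55 and 23.2 to 29.5 CPM in the cortex). At 12 h and 24 h they summed to 10.9 to 16.4 and 9.82 to 16.6 CPM in the hippocampus and to 14.2 to 24.0 and 14.2 to 17.1 CPM in the cortex. Ly6g, which defines neutrophils, was at 0 in all saline libraries and at 6 h in the hippocampus, and its mean was 0.0610 CPM at 6 h in the cortex and 0.0223 to 0.0636 CPM in the later groups. The part of these cells in the levels was not tested. T cell markers summed to at most 9.5 CPM and B cell markers to at most 0.537 CPM in any library.

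**Figure D4:**
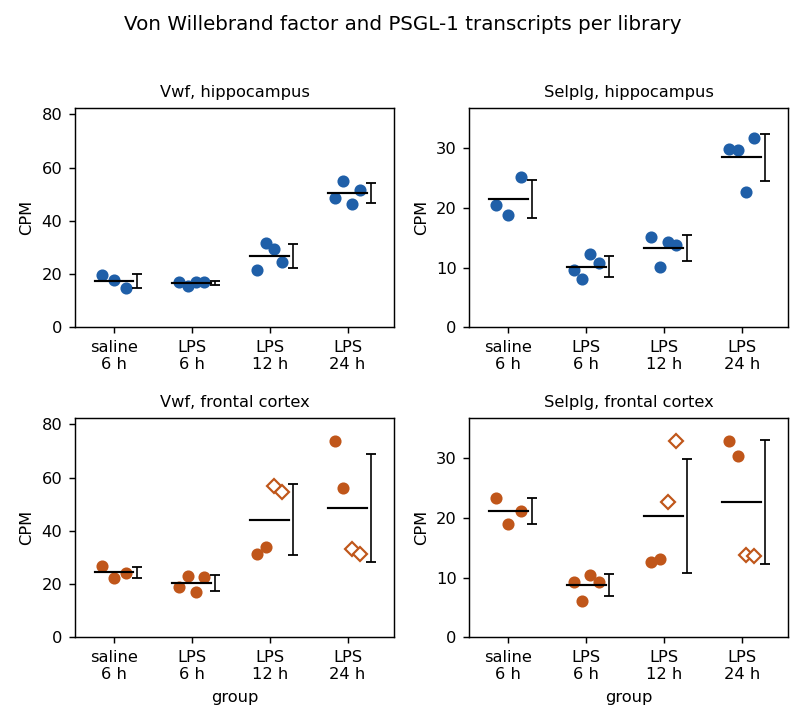
CPM of Vwf and Selplg in each library (y axis, linear) by group (x axis) in hippocampus (top) and frontal cortex (bottom), with points for libraries, horizontal bars for means and error bars for the SD. Open diamonds, the cortical libraries of A260, A261, A276 and A278, lie high at 12 h (54.5 and 56.9 CPM of Vwf) and low at 24 h (31.4 and 33.1 CPM).

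Levels can be ranked between genes only per length of transcript. In CPM per kilobase the order after saline was the same in both tissues: Selplg, Esam, Pecam1, Vcam1, Vwf, Icam2, Icam1, Madcam1, Sele and Selp. In the hippocampus it ran from 11.6 ± 1.75 for Selplg and 5.51 ± 0.522 for Esam to 0.680 ± 0.0311 for Icam1 and 0.00793 ± 0.00687 for Sele. The libraries of Esam and Pecam1, of Icam2 and Icam1 and of Sele and Selp overlapped there, and the other neighbours did not. At 6 h Esam led (7.69 ± 0.810), followed by Vcam1, Pecam1 and Selplg, each overlapping with the next. Icam1 (2.87 ± 0.513) then stood above Vwf, Sele, Selp and Icam2. At 24 h Selplg led again (15.3 ± 2.13), and Vwf (5.70 ± 0.430) overlapped with Pecam1 above it. In the cortex at 6 h the order again opened with Esam (9.54 ± 1.02) and Vcam1 (8.22 ± 1.25), and Sele (2.43 ± 0.746) stood next to Vwf (2.31 ± 0.322), their ranges overlapping.

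Few differences between the tissues passed the test. Of 9 members 1, Esam, differed after saline, lower in the hippocampus by 0.37 ± 0.13 (10.3 ± 0.974 against 13.7 ± 0.444 CPM, adjusted p = 0.0246), where 37.1% of 17650 genes differed. It did not pass without either A226 library (adjusted p = 0.116 and 0.0682). Pecam1 and Vwf passed too without the 4 cortical libraries (-0.34 and -0.49, adjusted p = 0.0445 and 0.00507). No member's response to LPS was called different between tissues at 6, 12 or 24 h (0%, 0.0963% and 0.125% of all genes were), and DESeq2 and limma-voom called none. At an unadjusted p under 0.05 there was none at 6 h and 24 h, and 1 at 12 h, Icam2, which rose less in the hippocampus (difference -0.90 ± 0.29, adjusted p = 0.25). For Icam1 the difference of the responses at 6 h was 0.02 ± 0.39, for Vcam1 -0.16 ± 0.20 and for Esam 0.08 ± 0.17 (SE). For the selectins, with 1 or 2 saline reads a tissue, no such difference is given, and their ratios stand side by side above.

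**Figure D5:**
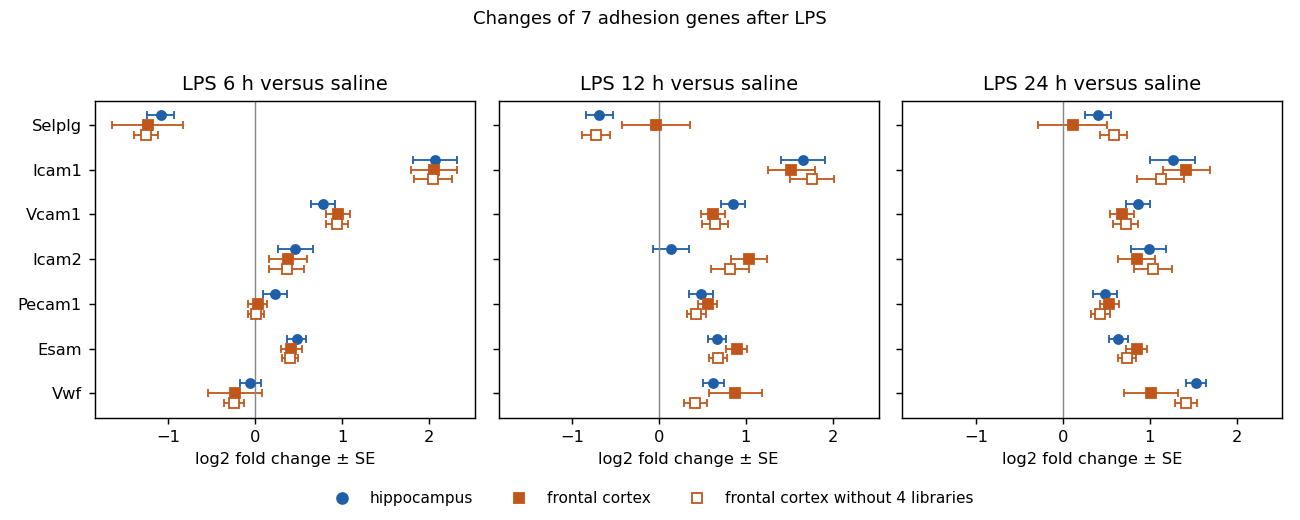
Log2 fold change from saline with its SE (x axis) of the 7 members with enough saline reads (y axis) at 6, 12 and 24 h after LPS. Circles are hippocampus, filled squares frontal cortex and open squares frontal cortex without the libraries of A260, A261, A276 and A278, where Vwf at 24 h is 1.42 ± 0.13 against 1.01 ± 0.31 with them.

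The genes whose log2 CPM followed a member most closely over the 30 libraries were ranked among 12496 named genes whose mean log2 CPM was 1 or more, as a description over libraries that share treatment, tissue and depth. For Sele these were Lcn2 (r = 0.972), S100a9 (0.949) and Osmr (0.939), and for Selp the same genes (0.982, 0.943 and 0.933). Lcn2 encodes the acute phase protein lipocalin 2, S100a9 a calprotectin chain of neutrophils and Osmr the oncostatin M receptor. For Icam1 they were Lcn2 (0.940), Cd14 (0.928) and Nfkb2 (0.921). Vcam1 had weaker neighbours, Apobec3 (0.846), Ly6a (0.845) and Lcn2 (0.843). Vwf shared no neighbour with these members, and had Dock2 (0.935), Pld4 (0.922) and Laptm5 (0.920), genes of leukocytes and microglia. The other members were not ranked. Within a tissue Sele correlated with Icam1 (r = 0.928 in the hippocampus, 0.95 in the cortex) and Vcam1 (0.865 and 0.896), but with Vwf at 0.189 and 0.0162 and with Selplg at -0.511 and -0.543. Vwf correlated with Selplg (0.631 and 0.749), Icam2 (0.626 and 0.806), Pecam1 (0.570 and 0.769) and Esam (0.518 and 0.672). With Selp it stood at 0.166 and 0.0545, with Icam1 at 0.00148 and -0.0809, with Vcam1 at 0.449 and 0.0093 and with Madcam1 at 0.414 and -0.2005.

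The partners of these molecules on leukocytes changed in part. Like the members, the gene lists were chosen with earlier results of these data known. The counts in the lists that follow stand beside 2.96% of all genes higher and 2.15% lower at 6 h, and 6.76% and 6.6% at 24 h, in the hippocampus (2.3% and 1.2%, then 3.73% and 2.38%, in the cortex). Of the integrin and counter-receptor list 10 of 12 genes were tested in the hippocampus, where 3 rose and 1 fell at 6 h and 5 rose and 1 fell at 24 h (list medians 0.03 and 0.23, beside -0.0036 and -0.0025 over all genes). Itgal, the alpha chain of LFA-1 that binds ICAM-1, rose from 0.190 ± 0.0450 to 0.590 ± 0.115 CPM at 6 h (1.58 ± 0.40, adjusted p = 0.0198), and Cd44, the hyaluronan receptor that can bind E-selectin, from 1.81 ± 0.231 to 5.08 ± 0.756 CPM (1.49, adjusted p = 1.2e-05). Itgad fell (-1.80, adjusted p = 0.00069). Itgam, the alpha chain of Mac-1, followed the late course, at 1.39 ± 0.815 CPM after saline, 1.93 ± 0.144 at 6 h and 8.66 ± 0.570 at 24 h (2.66 at 24 h, adjusted p = 8.87e-09). In the cortex 3 of 12 rose at 6 h and 7 rose and 1 fell at 24 h (medians 0.22 and 0.96). Of 9 tested genes that build selectin ligands, 1 rose (Gcnt1, 0.59) and 2 fell (B4galt1, -0.58, and Tpst2, -0.32) at 6 h in the hippocampus, and Gcnt1 alone passed in the cortex (0.75).

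Of 14 other endothelial adhesion and passage genes, 3 rose at 6 h and 6 at 24 h in the hippocampus and none fell at these times, with medians of 0.10 and 0.26 (2 higher at 6 h, and 4 higher and 1 lower at 24 h, in the cortex). Of all genes 2.96% and 6.76% were called higher in the hippocampus at these times, and 2.3% and 3.73% in the cortex. Podxl, a sialomucin of the endothelial surface, went from 24.2 ± 0.447 to 53.8 ± 6.04 CPM at 6 h (1.16, adjusted p = 7.13e-05) and Mcam (CD146) from 8.38 ± 0.0799 to 13.2 ± 1.53 CPM (0.66, adjusted p = 0.0142). F11r, the junctional adhesion molecule A, reached 10.6 ± 0.331 CPM at 24 h from 5.06 ± 0.590 (1.07, adjusted p = 5.16e-07). Neither Icam4 nor Icam5 rose, and Icam5, a neuronal family member, fell at 24 h in the hippocampus (-0.20, adjusted p = 0.00488). Of 9 genes of Weibel-Palade cargo and release 2 rose at 6 h in each tissue, Angpt2, the stored antagonist of Tie2 (2.15 and 1.83, adjusted p = 0.0068 and 0.0372), and Igfbp7 (1.32 and 1.18, adjusted p = 1.68e-09 and 6.22e-06). Igfbp7 rose on to 51.7 ± 2.43 CPM at 24 h in the hippocampus from 10.51 ± 1.86 after saline. Of 4 genes for sheddases and von Willebrand factor cleavage none passed at 6 h in the hippocampus, and Adam17 and Adam10 rose at 24 h (0.40 and 0.20, adjusted p = 0.00148 and 0.0104).

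Among genes that act before the adhesion receptors, 5 of 9 on a list of LPS and cytokine receptors and co-receptors rose at 6 h in each tissue. Of all genes 2.96% in the hippocampus and 2.3% in the cortex were called higher (2.15% and 1.2% lower). Cd14, the LPS co-receptor, rose by 2.06 and 2.30 (adjusted p = 1.81e-07 and 1.65e-05) and Tnfrsf1a, a tumour necrosis factor receptor, by 0.93 and 1.08 (adjusted p = 1.83e-05 and 4.42e-05). Of 10 NF-kB subunit and inhibitor genes 3 rose and 1 fell in the hippocampus and 4 rose in the cortex. Nfkb2 rose by 1.28 and 1.38 (adjusted p = 2.62e-06 and 0.00037), and Nfkbia, the inhibitor I-kappa-B-alpha, fell in the hippocampus (-0.43, adjusted p = 0.018). On a list of leukocyte attractants that also holds the chemokine scavenger Ackr1, 5 of 7 tested genes rose in the hippocampus and 6 of 8 in the cortex at 6 h. Ccl2, the monocyte attractant, stood at 0.0347 ± 0.0349 CPM after saline and 1.963 ± 1.02 CPM at 6 h in the hippocampus (adjusted p = 0.00187), and Cxcl10 at 0.101 ± 0.114 and 1.14 ± 0.298 CPM (adjusted p = 0.0125).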

How the data were processed

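RNA sequencing counts of 30 libraries were analysed. Per the labels' protocols, poly(A)-selected stranded libraries were read in pairs of 150 bases, and STAR 2.6.0a, Trim Galore 0.4.1 and the build GRCm38/mm10 are named in the submitters' processing notes beside FastQC and DESeq2. The deposited values are raw whole-number counts per gene, made by the authors. For the counter, its strand setting and its annotation no source used here gives a name, so reads of Selp, Icam1 and Vcam1 cannot be told apart from those of overlapping antisense genes. Gene names came from GENCODE M21 (98.4% of IDs).

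Genes were filtered with filterByExpr (minimum count 10, total 15) and tested with edgeR 4.0.16 (TMM, robust quasi-likelihood) in R 4.3.3, per tissue over 15 libraries (17289 and 17111 genes) and over all 30 for tissue differences (17650 genes). P values were adjusted by Benjamini-Hochberg over all genes, with a threshold of 0.05. Genes with at most 30 saline reads are given as ratios of pooled counts with exact 95% intervals. Intervals and floors (3 counts) cover counting error only. Scripts were tested on simulated data. Hippocampal libraries held 18910055 to 29896427 counts and cortical ones 16826882 to 33034295.

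All 10 members were named, with other genes taken from 9 pathway and 17 marker lists and likeness by Pearson's r. The members and lists were chosen with earlier results of these data known. Deviations of the 2 tissues of 1 mouse from their group means correlated with a median r of 0.104 (-0.0616 to 0.293) over 14 mice. Since both came from the same animal, fits with the mouse as a replicate block (duplicateCorrelation, 0.11) were run beside the main fits. They hold both tissues in 1 limma-voom fit, so they also differ from the per-tissue fits in method and in a spread shared by the tissues. Other alternatives were other scalings, filters, DESeq2 1.42.0, limma-voom (limma 3.58.1), other sets of libraries and each library left out. A hippocampal baseline library was not analysed here.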

Additional observations from a re-analysis of the deposited data

Results flagged for a closer look

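Of 60 groups of 4 libraries (10 members, 6 LPS groups), 6 held a library whose gap to its nearest neighbour was large for the range of its group, by a test that picks out about 1 in 20 groups by chance. In the hippocampus these were Selp at 24 h in A274 (lowest, 1.167 CPM), Icam1 at 12 h in A261 (highest, 8.842 CPM), Icam2 at 6 h in A243 (highest, 1.718 CPM) and Vwf at 6 h in A241 (lowest, 15.6 CPM). In the cortex they were Sele at 24 h in A274 (lowest, 1.295 CPM) and Pecam1 at 12 h in A260 (highest, 37.74 CPM). The library of A261 also had the highest choroid plexus marker sum, and A260 is 1 of the 4 cortical libraries whose late-gene score went against the time label.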

How the results depend on the processing

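No member changed direction against its call under any alternative. Counts of members called moved by over 1.5 times as follows. In 1 fit of both tissues without a block, the hippocampal count lower was 0 at 6 h and 0 at 12 h, that of 12 h against 6 h was 0 higher and 0 lower, and that higher at 24 h than at 12 h was 1. With the mouse as a replicate block these were 0 lower at 12 h, 0 and 0 for 12 h against 6 h, and 0 higher at 24 h than at 12 h. With no filter the hippocampus gave 3 higher and 2 lower at 12 h than at 6 h and 2 lower at 24 h than at 12 h, and limma-voom gave 2 higher at 12 h than at 6 h. In the cortex 1 was lower at 6 h by DESeq2, limma-voom, the 2 groups alone, both tissues together, the replicate block and without the 4 libraries. For 12 h against 6 h there, 0 were lower with library totals or no filter, 4 were higher and 2 lower by DESeq2, 0 and 0 by limma-voom and without the 4 libraries, 1 and 0 in the 2 groups alone, and 5 and 2 in both fits of the 2 tissues. For 24 h against 6 h 1 was lower with library totals or no filter, and 4 were higher by DESeq2, limma-voom and both fits of the 2 tissues. After saline 4 members differed between tissues by limma-voom, 3 without the 4 libraries and 0 without the 2 hippocampal libraries richest in choroid plexus RNA, which also gave 2 lower at 12 h than at 6 h. Without the 4 libraries 1 was lower at 12 h and 2 higher at 24 h than at 12 h in the cortex.

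Leaving out 1 library at a time gave 0 to 2 lower at 12 h than at 6 h and 0 to 1 lower at 24 h than at 12 h in the hippocampus. In the cortex it gave 0 to 3 higher and 0 to 2 lower at 12 h than at 6 h, and 0 to 2 higher and 0 to 3 lower at 24 h than at 6 h. Between tissues after saline it gave 0 to 1 lower. The Selp ratios in the cortex ranged from at least 72.4 to 469, at least 34.5 to 225 and at least 28.9 to 174, lowest without saline A226. The cause of these moves was not tested. Depth limits Sele, Selp and Madcam1 most, with at most 12 saline reads a tissue.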
